A study of Mus musculus with 9 samples.

Results

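The oxidative phosphorylation genes described here are the nuclear genes for subunits of the respiratory chain complexes and of the ATP synthase. They were chosen by gene symbol: Nduf genes with the letters a, b, c, s or v for complex I, Sdha, Sdhb, Sdhc and Sdhd for complex II, Uqcr genes and Cyc1 for complex III, the numbered Cox subunit genes for complex IV and the Atp5 genes for complex V. The rule matched 85 of the 24421 rows of the count table, and 80 of these had at least 10 counts in 3 or more libraries and were kept. By complex, 34 belonged to complex I, 4 to complex II, 9 to complex III, 16 to complex IV and 15 to complex V. Atp5s and Atp5sl matched by name but encode assembly proteins, not subunits. Of the 5 rows not kept, Ndufs5, Cox7b2, Cox8b and Cox8c were listed at 0 in every library and Ndufa4l2 had 0 to 3 counts. Ndufs5 encodes an accessory subunit of complex I, whereas Cox7b2, Cox8b and Cox8c are tissue-restricted isoforms. Whether the 0 of Ndufs5 reflects its expression or the counting was not tested. The kept genes nearest to the count limit were Atp5l with 20 to 38 counts, Cox4i2 with 9 to 47, Cox6a2 with 23 to 48 and Cox7a1 with 23 to 52. All 80 kept genes passed the low-count filter of the test. Ndufa4 was counted with complex IV, where its product is now placed, and Cox7a2l, a factor that joins complexes III and IV, with the complex IV isoforms. The complex I gene Ndufab1 and the subunits encoded by mitochondrial DNA lie outside the symbol rule and were not analysed here.

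Mouse bone marrow depleted of lineage-positive cells was expanded for 5 days in IL-3, IL-6 and SCF, and mRNA was sequenced from 3 groups of 3 libraries on the C57BL/6 background. One group was wild type (WT) and received vehicle, and the other 2 carried the Tet2-/-Flt3ITD genotype, a combined loss of the DNA demethylase Tet2 and an internal tandem duplication in the cytokine receptor Flt3. Of the mutant groups, 1 received vehicle and 1 received SHP099 for 24 h, an allosteric inhibitor of the phosphatase SHP2, which Ptpn11 encodes. The series asks how SHP099 acts on these leukemic myeloid cells. The dose is not given in the sources used here, and the labels name no promoter or Cre driver for either allele. Mutant cultures came from individual mice, whereas the labels do not say whether the WT cultures did, and p-values there reflect only how far these libraries spread, which may be technical. No WT culture received SHP099, so the drug was compared with vehicle in mutant cells alone.

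The libraries held 27242168 to 45810089 counts. Tet2 stood at 33.2 ± 1.48 CPM (counts scaled to a common library size; SD, n = 3) in WT, 15.5 ± 1.3 in mutant vehicle and 12.4 ± 1.28 in mutant SHP099 libraries. Ptpn11 was at 353 ± 22.4, 295 ± 32.0 and 299 ± 18.9 CPM, and Flt3 at 1.92 ± 0.505, 2.19 ± 0.703 and 2.33 ± 0.647 CPM. SHP099 replicate 3 stood apart: the ribosomal RNA precursor Rn45s took 4.33% of its counts against 0.276% to 0.734% in the other 8 libraries. Its chi-square per degree of freedom against the other SHP099 libraries was 113 and 116, against 11.1 to 25.8 for the other replicate pairs. That measure includes Rn45s and was not computed without it, so it is not separate from the Rn45s excess. Mutant vehicle replicate 1 held the lowest summed level of all 9 libraries for complexes I, III and IV. Counts of changed genes are therefore also given without each of these libraries.

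Complex I takes electrons from NADH through flavin and iron-sulfur core subunits to ubiquinone, and a shell of small accessory subunits surrounds that core. Complex II feeds electrons from succinate, complex III passes them to cytochrome c, and complex IV passes them to oxygen. Complexes I, III and IV pump protons, and the ATP synthase lets protons flow back through its membrane part, Fo, to make ATP in its F1 head. The catalytic heart of complex IV and the proton-pumping membrane core of complex I are encoded by mitochondrial DNA, so most nuclear genes of these 2 complexes encode the surrounding subunits. Hematopoietic progenitors are known to raise mitochondrial respiration as they leave quiescence and proliferate.

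The 80 genes together took 1.1% to 1.22% of all counts. Per kilobase of their median coding transcript, the levels averaged over the 9 libraries had a median of 249 CPM in complex V, 193 in complex IV, 182 in complex III, 128 in complex II and 99.1 in complex I. Atp5b, the catalytic beta subunit of F1, had the highest level at 811 CPM per kilobase, followed by the F1 alpha subunit gene Atp5a1 at 499, Cox4i1 at 466, Cox6b1 at 450 and Cox8a at 409. Uqcrh led complex III at 365, Ndufb8 complex I at 230 and Sdhd complex II at 185 CPM per kilobase. The isoforms known from muscle, lung or testis were far lower, with Cox4i2 at 1.03, Cox6a2 at 1.35, Cox7a1 at 2.45 and Cox6b2 at 16 CPM per kilobase. Atp5l, a ubiquitous membrane subunit gene, was at 1.25 CPM per kilobase. Of the 50-base words of its transcripts, 84.8% also occurred in transcripts of other genes, so its count is uncertain. The same held for 100% of Atp5g2, 56.2% of Atp5g1, 53.8% of Ndufa12, 53.0% of Cox7c, 50.5% of Atp5h and 50.3% of Atp5o. For Cox5a it was 32.0%, and another gene on the opposite strand overlapped 41.7% of the exon bases. Further genes also shared words, among them Uqcrb at 43.4%, Atp5f1 at 38.7%, Ndufb2 at 33.5% and Ndufb9 at 23.4%. Other genes on the same strand overlapped 29.0% of the exon bases of Atp5o and 28.6% of those of Ndufb9. The strand setting of the counting is not given in the sources used here.

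Promoter sequence was available in RefSeq for 66 of the 80 genes, as windows of 250 bases before to 50 bases after the transcription start on GRCm38.p6. Respiratory chain promoters are textbook targets of NRF1, of the ETS-family factor GABP (NRF2) and of YY1, so the letters GCGCA and GCGC parted by any 1 base (NRF1), CCGGAAG (ETS) and AAGATGGCG (YY1) were searched on both strands. The NRF1 letters were present at 16 of the 66 genes (24.2%), against 4.6% of all 32851 windows and 9.49% of the 12773 windows of tested genes. The ETS letters were present at 16 genes (24.2%), against 8.86% and 16.9%, and the YY1 letters at 8 genes (12.1%), against 1.4% and 2.88%. These are shares of genes set against shares of windows. Of the 72 windows of the 66 genes, 23.6% held the NRF1, 22.2% the ETS and 12.5% the YY1 letters. At least 1 of the 3 motifs was found at 34 genes (51.5%), and 2 or more at Atp5h, Atp5j, Atp5k, Cox6a1, Ndufs6 and Sdhd. The CCAAT box letters (CCAAT) were found at 45.5% of the genes (43.1% of their windows) against 37.4% of all windows and 37.6% of those of tested genes. The TATA letters (TATAAA) were found at 7.58% of the genes (8.33% of their windows) against 13.6% and 7.21%. Of the 24 genes with a window that rose with SHP099, described next, 2 held the NRF1 letters, 8 the ETS letters and 3 the YY1 letters. Among the other 42 genes these numbers were 14, 8 and 5. The 250 upstream bases of 4 genes are printed 5′ to 3′ on the strand of the gene, all on the minus strand, with NRF1 and ETS matches in capitals. Cox6a1 (chr5:115348959-115349208) and Atp5h (chr11:115419920-115420169) rose with SHP099 and hold both motifs, Sdhd (chr9:50603850-50604099) holds both and missed the threshold, and Ndufa1 (chrX:37191239-37191488) had the largest log2 fold change of the genes that passed the test and holds none of the 3 motifs in its window.
Cox6a1: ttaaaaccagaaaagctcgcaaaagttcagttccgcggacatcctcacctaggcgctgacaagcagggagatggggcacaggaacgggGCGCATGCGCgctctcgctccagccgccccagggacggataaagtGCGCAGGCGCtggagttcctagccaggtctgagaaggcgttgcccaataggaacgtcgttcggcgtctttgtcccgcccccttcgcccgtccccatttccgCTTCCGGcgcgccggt
Atp5h: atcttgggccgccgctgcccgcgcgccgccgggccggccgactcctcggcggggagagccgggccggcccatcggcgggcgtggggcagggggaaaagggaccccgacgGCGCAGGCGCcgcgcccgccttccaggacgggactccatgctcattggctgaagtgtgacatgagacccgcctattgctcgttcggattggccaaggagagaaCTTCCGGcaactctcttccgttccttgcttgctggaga
Sdhd: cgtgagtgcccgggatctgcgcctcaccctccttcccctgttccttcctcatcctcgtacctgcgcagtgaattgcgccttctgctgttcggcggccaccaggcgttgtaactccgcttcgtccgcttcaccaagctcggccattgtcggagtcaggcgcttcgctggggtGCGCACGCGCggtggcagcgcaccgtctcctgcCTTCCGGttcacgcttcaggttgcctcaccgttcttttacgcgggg
Ndufa1: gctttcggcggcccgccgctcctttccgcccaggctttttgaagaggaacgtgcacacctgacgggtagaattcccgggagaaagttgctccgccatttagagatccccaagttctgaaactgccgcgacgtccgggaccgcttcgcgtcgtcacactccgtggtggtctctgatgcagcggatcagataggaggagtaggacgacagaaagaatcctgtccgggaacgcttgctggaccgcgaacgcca

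The NRF1 letters of Cox6a1 lie 162 to 153 and 117 to 108 bases before its start and the ETS letters 16 to 10 bases before it. In Atp5h they lie 141 to 132 and 38 to 32 bases before the start, and in Sdhd 79 to 70 and 46 to 40 bases before it. A match of letters is a description and not a measured binding site.

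With SHP099, part of the oxidative phosphorylation genes rose slightly in mutant cells. They included 12 of 27 accessory and 1 of 7 core subunit genes of complex I and 3 of 5 accessory and 0 of 4 core genes of complex III, a difference between accessory and core genes that was not tested. Of the 80 genes, 29 rose and 0 fell (edgeR quasi-likelihood test, Benjamini-Hochberg adjusted p under 0.05 over 13270 genes). That is 36.2% higher, against 8.81% of all genes tested that rose, 13% that fell and 21.8% that changed either way. The median log2 fold change was 0.13, against 0.00 over all genes tested, and 69 of the 80 genes were above 0. The changes were small, from -0.47 to 0.44 on the log2 scale. In 45 genes all 3 SHP099 libraries lay above all 3 vehicle libraries, and in 3 they lay below, against 18.3% and 22.4% of all genes tested. The replicate numbers pair the mutant libraries, and in 58 of the 80 genes SHP099 was above vehicle in 3 of 3 pairs, against 32.2% of all genes tested. With the pair as a block in the mutant libraries alone, 45 genes rose and 1 fell, Cyc1, against 21.5% and 21.3% of 13004 genes. The number of genes that rose was 17 without SHP099 replicate 3, and 20 rose and 1 fell without mutant vehicle replicate 1. Shares of all genes tested are not given for fits with a library left out, here or below, so these counts have no background. In bulk libraries a change in the mix of cells and a change in RNA per cell cannot be told apart.

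**Figure D1:**
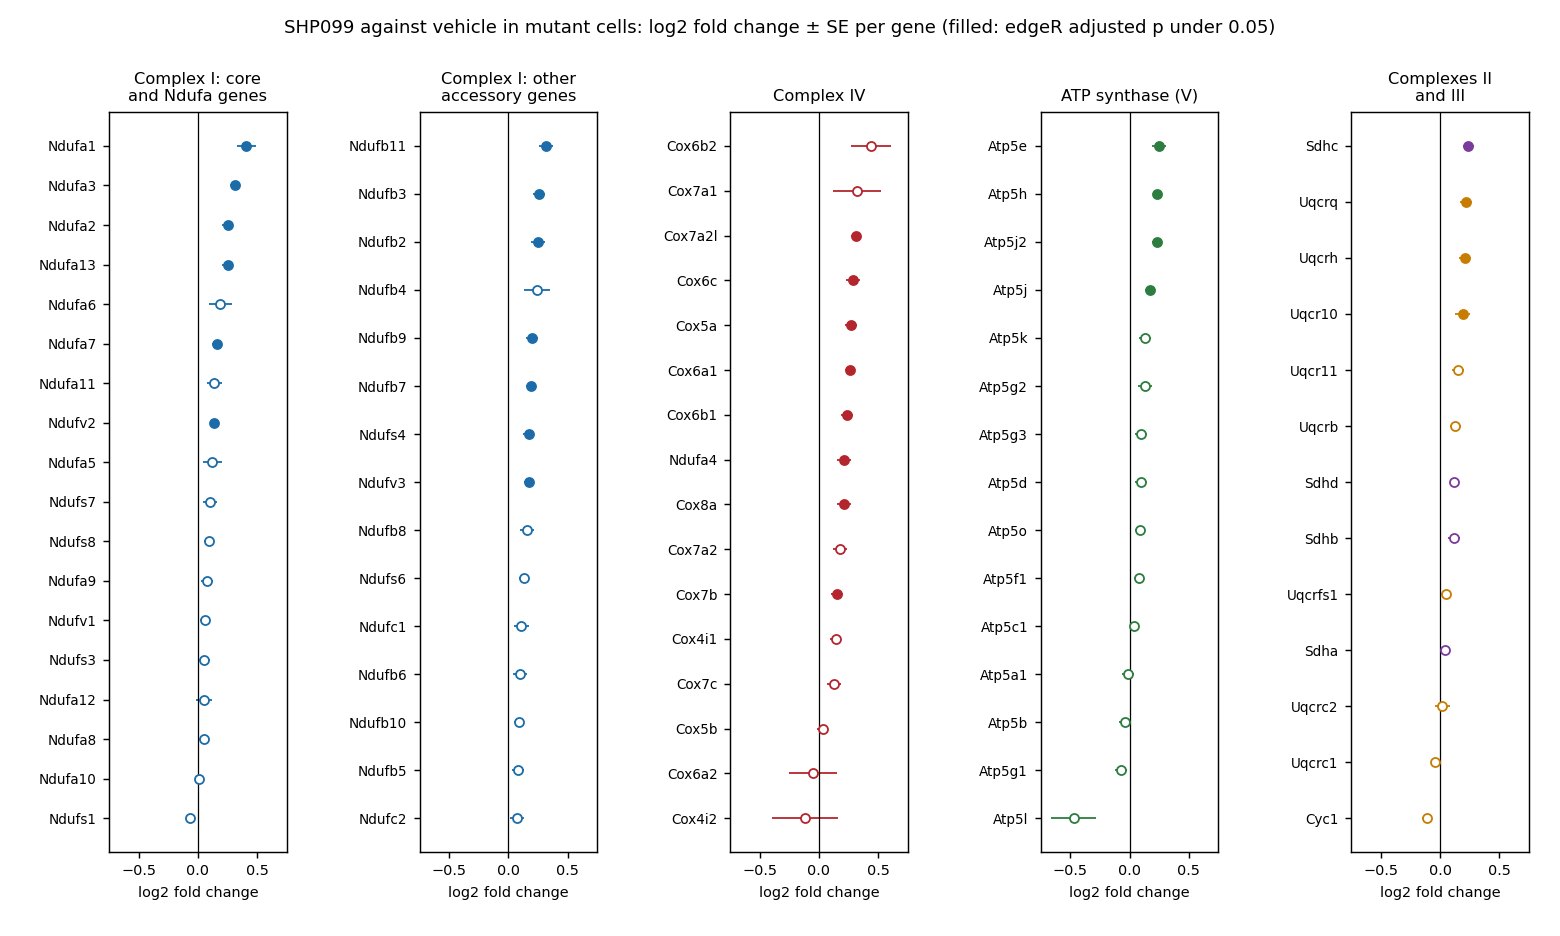
Log2 fold change of the subunit genes with SHP099 against vehicle in mutant cells (x axis, points with standard error bars), by complex, leaving out 1 gene that did not pass, with filled points for genes at an edgeR adjusted p under 0.05. Most points lie right of 0, the 29 filled points are all on that side, and Cyc1, Ndufs1, Uqcrc1, Atp5a1 and Atp5b lie at or left of 0.

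Of the 16 complex IV genes 8 rose and 0 fell, against 8.81% and 13% of all genes tested, with a median log2 fold change of 0.21. Among its 11 subunits of general use 7 rose, and 10 did with the pair block, where 21.5% of all genes rose. The summed level of complex IV genes was 1776.8, 1941.9 and 1907.3 CPM in the vehicle libraries and 2101.0, 2130.5 and 2228.1 CPM with SHP099. The groups did not overlap, and within pairs 1, 2 and 3 the SHP099 library stood at 1.18, 1.1 and 1.17 times its vehicle partner. Without SHP099 replicate 3, 5 of the 16 genes rose, and 6 did without mutant vehicle replicate 1.

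Cox7a2l, the supercomplex factor, stood at 55.7, 61.0 and 58.7 CPM with vehicle and at 71.7, 73.7 and 72.3 CPM with SHP099. Its log2 fold change was 0.31 ± 0.04 (SE) with an edgeR adjusted p of 0.00087. Every SHP099 library was above every vehicle library, and the WT libraries, at 59.8 to 61.8 CPM, lay with the vehicle group. Cox5a, which lies on the matrix side of the complex, was at 212, 229 and 224 CPM with vehicle and 252, 269 and 280 CPM with SHP099, which gave a log2 fold change of 0.27 ± 0.05 (edgeR adjusted p = 0.0047). Cox6a1, the widely expressed isoform of a subunit that regulates the enzyme, was at 161, 172 and 166 CPM with vehicle and 197, 196 and 205 CPM with SHP099, and the log2 fold change was 0.26 ± 0.04 (edgeR adjusted p = 0.0022). Neither gene's groups overlapped. Cox6c was at 83.8, 97.0 and 99.9 CPM with vehicle and at 110, 115 and 117 CPM with SHP099, again without overlap, with a log2 fold change of 0.29 ± 0.06 (edgeR adjusted p = 0.012). Cox6b1, which lies on the intermembrane-space side, rose by 0.24, Ndufa4 and Cox8a by 0.21 each and Cox7b by 0.15 on the log2 scale. Cox4i1, the most abundant complex IV transcript per kilobase, went from 339 ± 20.4 to 374 ± 9.37 CPM (n = 3 each) and missed the threshold at an edgeR adjusted p of 0.053. The zinc-binding subunit gene Cox5b overlapped between the groups, at 145, 134 and 129 CPM with vehicle and 137, 135 and 143 CPM with SHP099.

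The tissue-restricted isoforms did not pass the test in this comparison. Cox6b2, best known from testis, was at 5.88, 5.15 and 4.21 CPM with vehicle and at 7.06, 7.86 and 5.76 CPM with SHP099, higher in each pair while the groups overlapped. Its log2 fold change was 0.44 ± 0.17, the largest of the 80, with an edgeR adjusted p of 0.096 and of 0.0005 with the pair block. Cox4i2, which replaces Cox4i1 in lung, was at 0.727, 0.978 and 1.15 CPM with vehicle and 1.04, 0.829 and 0.771 CPM with SHP099. The muscle and heart isoforms Cox6a2 and Cox7a1 lay at 0.727 to 1.23 CPM in the mutant libraries, with log2 fold changes of -0.05 ± 0.20 and 0.32 ± 0.20. Cox7a2, the widely expressed partner of Cox7a1, went from 141 ± 11.6 to 160 ± 8.08 CPM with an edgeR adjusted p of 0.059, and of 0.00095 with the pair block.

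In complex I, 13 of 34 genes rose and 0 fell, against 8.81% and 13% of all genes tested, and 12 of these 13 were accessory subunit genes. The 27 accessory genes had a median log2 fold change of 0.16, and all 27 were above 0. Of the 7 core genes 1 rose, Ndufv2, and their median was 0.08. Without SHP099 replicate 3, or without mutant vehicle replicate 1, 8 accessory genes and 0 core genes rose. The summed level of complex I genes was 2557.7, 2726.3 and 2687.5 CPM with vehicle and 2897.2, 2886.1 and 2962.6 CPM with SHP099, without overlap.

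Ndufa1, a small membrane subunit gene on the X chromosome that is needed to assemble the complex, was at 29.3, 36.3 and 33.9 CPM with vehicle and 43.1, 42.9 and 46.2 CPM with SHP099. Its log2 fold change was 0.41 ± 0.08 (edgeR adjusted p = 0.0075), and the SHP099 libraries also lay above all 3 WT libraries, at 34.4 to 39.6 CPM. Ndufa3 was at 52.4, 54.2 and 53.6 CPM with vehicle and 66.4, 65.2 and 67.7 CPM with SHP099, which gave a log2 fold change of 0.31 ± 0.04 (edgeR adjusted p = 0.00086). The gap between its groups was more than 10 CPM, with an SD of 0.929 and 1.21 CPM within them. Ndufb11, also X-linked, was at 88.5, 103 and 99.2 CPM with vehicle and 122, 114 and 126 CPM with SHP099, and the log2 fold change was 0.32 ± 0.06 (edgeR adjusted p = 0.0056). Ndufb3 was at 67.0, 65.7 and 68.8 CPM with vehicle and 78.1, 77.3 and 86.5 CPM with SHP099, which gave a log2 fold change of 0.26 ± 0.05 (edgeR adjusted p = 0.0045). In both genes the groups were apart, and SHP099 replicate 3 was the highest library. Ndufa13, also known as GRIM-19, was at 97.4, 98.9 and 103 CPM with vehicle and 116, 116 and 124 CPM with SHP099, and the log2 fold change was 0.25 ± 0.05 (edgeR adjusted p = 0.0056). Ndufa2 and Ndufb2 rose by 0.25 each, and Ndufb9, Ndufb7, Ndufs4, Ndufv3 and Ndufa7 by 0.16 to 0.20 on the log2 scale.

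Ndufv2, a core iron-sulfur subunit of the NADH-oxidising module, was at 112, 113 and 114 CPM with vehicle and 124, 125 and 126 CPM with SHP099. Its log2 fold change was 0.14 ± 0.04 (edgeR adjusted p = 0.024), small but larger than the spread within either group. Ndufv1, the flavin-binding partner of Ndufv2, went from 115 ± 2.48 to 121 ± 2.23 CPM and did not pass the test (edgeR adjusted p = 0.25). Ndufs1, the largest core subunit, was at 144, 148 and 146 CPM with vehicle and at 136, 141 and 140 CPM with SHP099. All its SHP099 libraries lay below the vehicle libraries, with a log2 fold change of -0.07 ± 0.03 that did not pass (edgeR adjusted p = 0.15).

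Of the 4 complex II genes, Sdhc, a membrane anchor that holds the quinone site, rose. It was at 101, 112 and 112 CPM with vehicle and 128, 127 and 130 CPM with SHP099, which gave a log2 fold change of 0.24 ± 0.05 (edgeR adjusted p = 0.0063). Sdhd, the other anchor, was at 219, 235 and 233 CPM with vehicle and 247, 251 and 248 CPM with SHP099. Its groups did not overlap, and the log2 fold change of 0.12 ± 0.04 had an edgeR adjusted p of 0.061, and of 0.013 with the pair block. The iron-sulfur subunit gene Sdhb had a log2 fold change of 0.12 ± 0.05 (edgeR adjusted p = 0.15, and 0.014 with the pair block). The flavoprotein gene Sdha was at 344 ± 13.6 and 353 ± 7.25 CPM, a log2 fold change of 0.04 ± 0.04.

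In complex III, which oxidises ubiquinol, 3 of the 5 accessory genes rose and 0 of the 4 core genes did, against 8.81% of all genes tested. Uqcrq was at 89.0, 103 and 100 CPM with vehicle and 114, 110 and 116 CPM with SHP099, and the log2 fold change was 0.22 ± 0.05 (edgeR adjusted p = 0.017). Uqcrh, the hinge protein gene, rose by 0.21 ± 0.05 and Uqcr10 by 0.19 ± 0.06 on the log2 scale. Without SHP099 replicate 3 none of the 3 passed the edgeR test, although all 5 accessory genes stayed above 0, and 1 rose without mutant vehicle replicate 1. With the pair block all 5 rose, against 21.5% of all genes in that fit. Cyc1, which encodes the heme protein cytochrome c1, was at 197, 218 and 218 CPM with vehicle and 198, 193 and 198 CPM with SHP099. It was lower in 2 of 3 pairs, with a log2 fold change of -0.11 ± 0.04 (edgeR adjusted p = 0.12, and 0.036 with the pair block). Uqcrfs1, the Rieske iron-sulfur protein gene, was at 140 ± 5.34 and 146 ± 2.74 CPM and Uqcrc1 at 298 ± 11 and 290 ± 5.19 CPM, and neither passed. The summed level of complex III genes overlapped between the groups, at 1289.7, 1393.0 and 1394.5 CPM with vehicle and 1408.6, 1389.8 and 1438.9 CPM with SHP099.

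In the ATP synthase 4 of 15 genes rose and 0 fell, against 8.81% and 13% of all genes tested, with a median log2 fold change of 0.10. Atp5h, the d subunit of the peripheral stalk, was at 148, 149 and 148 CPM with vehicle and 171, 172 and 179 CPM with SHP099, which gave a log2 fold change of 0.23 ± 0.03 (edgeR adjusted p = 0.0016). Atp5j2, a small membrane subunit gene, rose by 0.23 ± 0.04 and Atp5j, in the peripheral stalk, by 0.17 ± 0.04 on the log2 scale. Atp5e, the smallest F1 subunit, was at 89.2, 103 and 95.1 CPM with vehicle and 113, 108 and 121 CPM with SHP099, and the log2 fold change was 0.25 ± 0.06 (edgeR adjusted p = 0.012). None of these 4 genes overlapped between the groups. Of the F1 beta and alpha subunit genes neither passed: Atp5b was at 1500, 1650 and 1640 CPM with vehicle and 1560, 1530 and 1570 CPM with SHP099, and Atp5a1 had a log2 fold change of -0.01 ± 0.05. The summed level of the complex, to which these 2 genes contribute most, was nearly even, at 1.06, 0.99 and 1.02 times the vehicle partner in pairs 1, 2 and 3. Of the c ring genes, whose products rotate in the membrane, Atp5g1 was at 105 ± 3.76 and 99.9 ± 3.35 CPM, Atp5g2 at 26.0 ± 1.55 and 28.5 ± 1.01 CPM and Atp5g3 at 261 ± 15.4 and 280 ± 11 CPM, and none passed without the pair block. Atp5l had the largest decrease of the 80, -0.47 ± 0.19 (edgeR adjusted p = 0.11), at 0.695, 0.906 and 0.793 CPM with vehicle and 0.574, 0.592 and 0.565 CPM with SHP099.

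**Figure D2:**
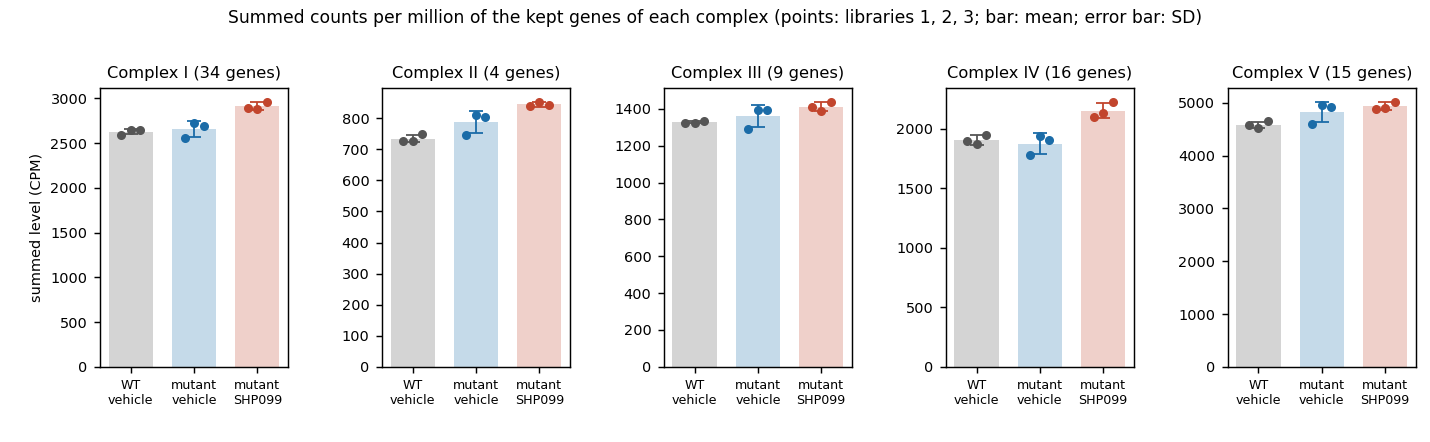
Summed CPM of the kept genes of each complex (y axis, from 0) in the 9 libraries, with bars for the mean and error bars for the SD of 3 libraries. The SHP099 libraries lie above the mutant vehicle libraries for complexes I, II and IV and overlap with them for complexes III and V.

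The changes with SHP099 went with transcript length. The 80 genes are short, with a median of 685.5 nucleotides for the median coding transcript (272 to 2900), against 2418 for all genes tested. Accessory subunits are the shortest: the medians were 623 nucleotides for accessory and 1046 for core genes of complex I, 445 and 1586 for complex III, 658 for Fo and 1166 for F1, and 615.5 for complex IV. Across the 80 genes the log2 fold change with SHP099 had a Spearman correlation of -0.51 with length, and across 13187 tested genes with a length it was -0.32. These are descriptions across genes measured in the same 6 libraries, and genes are not independent replicates. Of the genes under 700 nucleotides 19 of 41 rose (46.3%), against 20% of all tested genes of that length. From 700 to 1000 nucleotides 6 of 16 rose (37.5%), against 18.5%, and from 1000 to 2000 nucleotides 4 of 19 (21.1%), against 12.8%. Of the 4 longest genes, Sdha, Ndufs1, Atp5a1 and Ndufa10, 0 rose, against 4.72% of all tested genes of 2000 nucleotides or more. In each class but the longest the genes rose in a larger share than other genes of like length, a difference that was not tested.

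When a smooth trend on median coding transcript length and GC content was removed in each library, 12 of the 80 genes rose and 2 fell with SHP099, against 7.78% and 9.34% of all genes tested, and the median log2 fold change was 0.04. Of these 12, 11 were among the 29: Ndufa1, Ndufa3, Ndufa13, Ndufb3, Ndufb11, Ndufs4, Cox5a, Cox6a1, Cox6b1, Cox7a2l and Atp5h. The peripheral stalk gene Atp5f1 was the other, and Cyc1 and Atp5g1 were the 2 that fell. By complex, 6 of 34 genes rose in complex I, 0 of 4 in complex II, 0 of 9 in complex III, 4 of 16 in complex IV and 2 of 15 in complex V. With the trend on the longest coding transcript instead, 12 rose and 2 fell, against 7.57% and 9.16%, with a median of 0.01. With the pair block and the median-length trend together, 24 rose and 5 fell, against 22.2% and 19.3% of all genes tested. Ndufa1, Ndufa3, Ndufa13, Cox5a and Cox7a2l passed the edgeR or DESeq2 test under all 21 alternatives run. No alternative dealt with shared 50-base words, which made up 28.5% of Ndufa13, 32.0% of Cox5a and 19.8% of Cox7a2l. Nor did any deal with opposite-strand genes, which overlapped 30.0% of the exon bases of Ndufa13 and 41.7% of those of Cox5a. Among the other genes that rose, Cox7b lost its call in 9 of the 21, Uqcr10 and Ndufv2 in 8 each and Ndufa4 and Ndufa7 in 7 each. Whether length itself, RNA quality or another property that goes with length moved the counts was not tested.

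**Figure D3:**
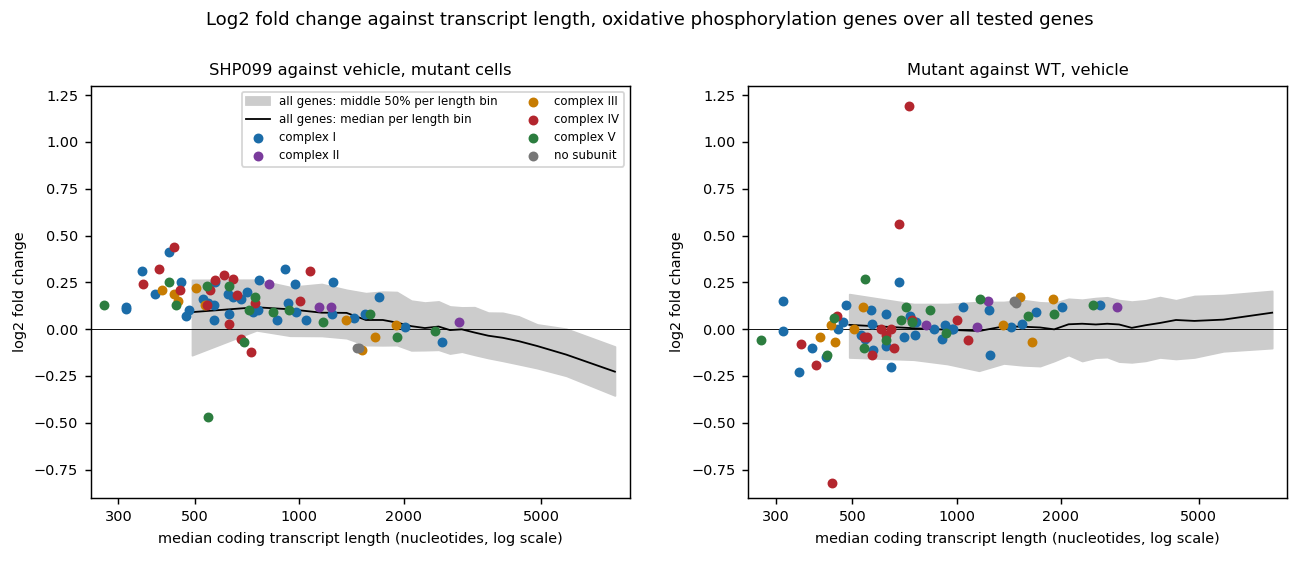
Log2 fold change (y axis) against median coding transcript length in nucleotides (x axis, log scale) for the 80 genes, coloured by complex, with SHP099 (left) and between genotypes (right). The line and band give the median and middle 50% of all tested genes in 20 length bins. With SHP099 most genes under 1000 nucleotides lie above 0 and genes over 2000 lie near 0, and between genotypes the short genes lie on both sides of 0.

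Between genotypes the oxidative phosphorylation genes differed little as a group. In mutant against WT vehicle libraries 7 of 80 genes were higher and 4 lower (edgeR, adjusted p under 0.05), against 16.9% and 14.7% of all genes tested and 31.6% in either direction. The median log2 fold change was 0.02, as over all genes tested. The groups did not overlap in 15 genes that were higher and 11 that were lower, against 24.6% and 20.5% of all genes. The 11 genes that passed the edgeR test in either direction became 7 without WT replicate 1 and 5 without mutant vehicle replicate 3. Shares of all genes tested are not given for those fits. The summed level of the 80 genes was 11204.8 ± 131 CPM in the WT libraries and 11535.7 ± 464 CPM in the mutant vehicle ones.

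Genes for isoforms and accessory subunits made up the larger differences. Cox4i2 was at 0.257, 0.611 and 0.409 CPM in the WT libraries and 0.727, 0.978 and 1.15 CPM in the mutant vehicle ones, a log2 fold change of 1.19 ± 0.31 (edgeR adjusted p = 0.017) at 9 to 47 counts per library. Its call was lost without WT replicate 1, WT replicate 3 or mutant vehicle replicate 3, with edgeR adjusted p-values up to 0.069. Cox6b2 was at 7.40, 8.74 and 10.6 CPM in the WT libraries and 5.88, 5.15 and 4.21 CPM in the mutant vehicle ones, a log2 fold change of -0.82 ± 0.17 (edgeR adjusted p = 0.0069). So these 2 isoforms differed in opposite directions while their widely expressed partners Cox4i1 and Cox6b1 did not pass, at 0.05 ± 0.05 and -0.08 ± 0.05. Ndufb8, an accessory gene of the membrane arm, was at 129, 138 and 134 CPM in the WT libraries and 152, 175 and 149 CPM in the mutant vehicle ones, a log2 fold change of 0.25 ± 0.06 (edgeR adjusted p = 0.013). Cyc1 was higher by 0.17 ± 0.04, Atp5c1, the rotor shaft of F1, by 0.16 ± 0.04, Sdhd by 0.15 ± 0.04, Ndufs1 by 0.13 ± 0.03 and Ndufa10 by 0.12 ± 0.03. Ndufa3 was lower, at 62.8, 59.8 and 65.2 CPM in the WT libraries and 52.4, 54.2 and 53.6 CPM in the mutant vehicle ones, a log2 fold change of -0.23 ± 0.04 (edgeR adjusted p = 0.0027). Ndufv3 was lower by -0.20 ± 0.04 and Cox6a1 by -0.14 ± 0.04. Ndufa3, Ndufv3, Ndufb8 and Cox6b2 kept their calls in all 19 alternatives run for this comparison. Ndufa10 lost its call in 12 of the 19, with RLE size factors, with DESeq2 and without any 1 library other than mutant vehicle replicate 1 among them, and its adjusted p reached 0.15. Sdhd lost its call in 8, among them without any 1 library other than WT replicate 2 or mutant vehicle replicate 1 (edgeR adjusted p up to 0.12). Cyc1 lost it in 6, among them without WT replicate 1 or 3, mutant vehicle replicate 2 or 3 or SHP099 replicate 3 (edgeR adjusted p up to 0.11). The calls of Ndufs1 and Atp5c1 were lost in 6 and 4, both without WT replicate 2, mutant vehicle replicate 2 or mutant vehicle replicate 3 (edgeR adjusted p up to 0.073 and 0.095). Cox6a1 lost its call in 5, without WT replicate 1, without mutant vehicle replicate 1 and with the length trends removed, where the edgeR adjusted p reached 0.95.

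The correlation of log2 fold change with length across the 80 genes was 0.45 between genotypes, against 0.05 across all tested genes. The mutant vehicle libraries enter both this comparison and the one with SHP099, with opposite signs, so the 2 correlations share data. With the median-length trend removed 10 genes were higher and 5 lower in mutant cells, against 14.3% and 15.1% of all genes tested. With the longest-length trend removed 14 were higher and 3 lower, against 29.7% of all genes in either direction.

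SHP099-treated mutant cells had higher levels of many oxidative phosphorylation transcripts than WT vehicle cells. Of the 80 genes 43 were higher and 1 was lower (edgeR, adjusted p under 0.05), against 15.4% and 16.3% of all genes tested, with a median log2 fold change of 0.16 against 0.00. This comparison shares its treated libraries with the first and its WT libraries with the second. It mixes genotype and drug, which cannot be told apart here. The summed level was 12161.6, 12194.7 and 12522.0 CPM in treated mutant and 11135.3, 11123.1 and 11356.0 CPM in WT libraries, without overlap. By complex, 17 of 34 genes were higher in complex I, 3 of 4 in complex II, 5 of 9 in complex III, 10 of 16 in complex IV and 8 of 15 in complex V. Ndufb8 stood at 183, 178 and 171 CPM against 129, 138 and 134 CPM in WT, a log2 fold change of 0.41 ± 0.06 (edgeR adjusted p = 0.0017). Ndufb3 was higher by 0.30 ± 0.05, Cox6c by 0.29 ± 0.06, Ndufa4 by 0.28 ± 0.06, Sdhd by 0.27 ± 0.04 and Uqcrb by 0.25 ± 0.05. Uqcrc1, a core protein of complex III, was the gene that was lower, at 295, 285 and 290 CPM against 315, 317 and 311 CPM (log2 fold change -0.12 ± 0.04, edgeR adjusted p = 0.041), a call lost in 9 of 19 alternatives. The count of 44 was smaller without SHP099 replicate 3, where 16 genes were higher and 0 lower. Without WT replicate 1 or 2 the numbers were 28 and 29 higher. Shares of all genes tested are not given for these fits. With the median-length trend removed 18 were higher and 2 lower, against 12.6% and 14.1% of all genes tested. With the longest-length trend removed 15 were higher and 1 lower, against 25.9% of all genes in either direction.

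**Figure D4:**
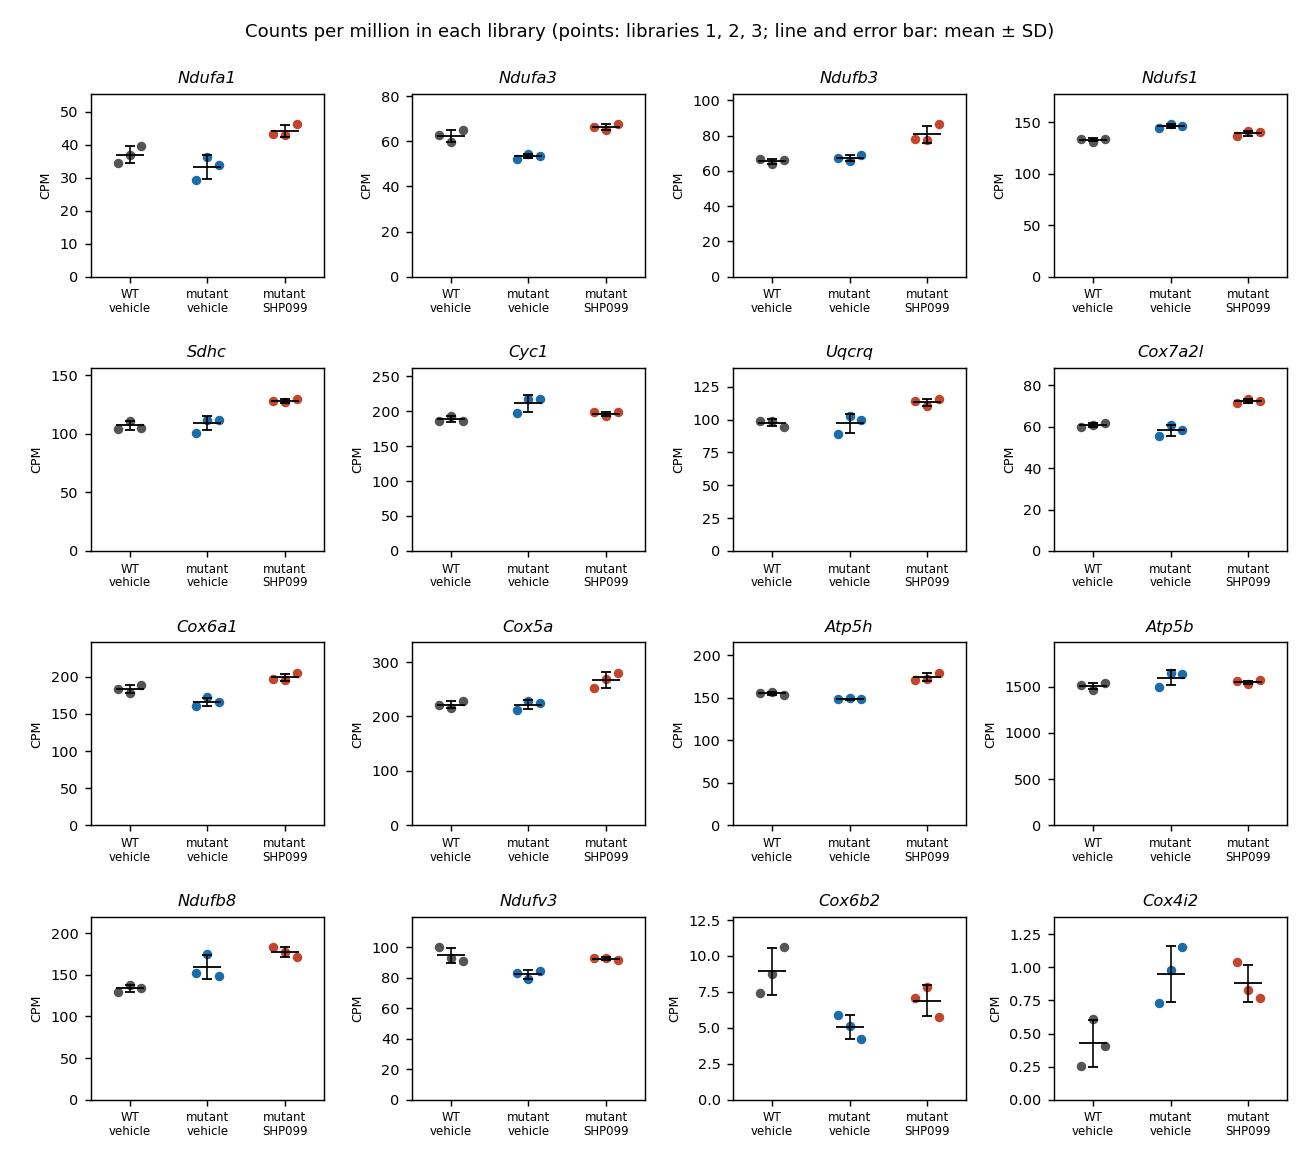
CPM (y axis, from 0) of 16 oxidative phosphorylation genes in each of the 9 libraries, with the mean and SD of each group. The SHP099 points of Ndufa1, Ndufa3, Ndufb3, Sdhc, Uqcrq, Cox7a2l, Cox6a1, Cox5a and Atp5h lie above all mutant vehicle points, whereas those of Cyc1 and Atp5b do not.

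Other genes of the pathway, from lists of assembly factors, electron carriers and regulators, changed in both directions. Their counts are to be read against 8.81% of all genes tested that rose and 13% that fell with SHP099, and 16.9% that were higher and 14.7% lower between genotypes, and several lie near these shares. With SHP099, of 14 complex I assembly factors 0 rose and 1 fell, Ndufaf4, from 38.8 ± 1.12 to 30.7 ± 2.84 CPM (log2 fold change -0.34 ± 0.07, edgeR adjusted p = 0.010). In mutant against WT vehicle cells 4 of the 14 were higher and 0 lower, with Ndufaf4 at 0.42 ± 0.07, Acad9 at 0.22 ± 0.04 and Ecsit at 0.28 ± 0.07. Ndufaf4 stood at 29.1 CPM in WT, near its level with SHP099. The mutant vehicle libraries enter both comparisons with opposite signs, so opposite changes of a gene or marker, here and below, share data. Of the 20 tested complex IV assembly factors 3 rose with SHP099 and 1 fell. Cox14 rose by 0.29 ± 0.06 and Pet100 by 0.27 ± 0.06, both for small proteins, while Cox10, which makes the heme of complex IV, had a log2 fold change of -0.22 ± 0.05. Of 6 complex III assembly factors 1 rose, Uqcc3, at 0.25 ± 0.07, and of 4 complex II assembly factors 0 changed. Among 5 ATP synthase assembly and inhibitor genes 1 rose, the inhibitor gene Atpif1, at 0.18 ± 0.05. Of 13 electron carrier and coenzyme Q genes 2 rose, Etfb at 0.22 ± 0.03 and Etfdh at 0.18 ± 0.03, which pass electrons from fatty acid oxidation to ubiquinone. With the pair block, where 21.5% of all genes rose and 21.3% fell, 1 complex I assembly factor rose and 3 fell, 6 complex IV assembly factors rose and 1 fell, and 1 complex II assembly factor and 2 of the ATP synthase list rose.

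Of 9 tested nuclear regulators of respiratory genes 6 fell and 0 rose with SHP099, against 13% and 8.81% of all genes tested, with a median log2 fold change of -0.18. Pprc1, a coactivator of NRF1, fell from 93.3 ± 2.98 to 69.5 ± 1.44 CPM (log2 fold change -0.42 ± 0.05, edgeR adjusted p = 0.0009). Gabpb2, listed among the GABP subunits, had a log2 fold change of -0.23 ± 0.04 and Myc, a growth regulator, one of -0.19 ± 0.05. Of 14 genes that maintain or transcribe mitochondrial DNA, 4 passed, not far from the 21.8% of all genes that changed either way. Of these 1 rose, Mterf1a, at 0.49 ± 0.14, and 3 fell: Lrpprc, which stabilises mitochondrial mRNA, at -0.26 ± 0.05, the mitochondrial RNA polymerase Polrmt at -0.27 ± 0.06, and the DNA polymerase Polg at -0.17 ± 0.05. In mutant against WT vehicle cells 5 of the 14 were higher and 0 lower, against 16.9% and 14.7% of all genes tested, among them Lrpprc at 0.29 ± 0.05, Slirp at 0.35 ± 0.09 and Tefm at 0.46 ± 0.11, and of the regulators Myc was higher by 0.49 ± 0.05 and Pprc1 by 0.18 ± 0.05. With the median-length trend removed 2 of the 9 regulators fell with SHP099, against 9.34% of all genes. Of 17 tricarboxylic acid cycle genes 10 were higher in mutant than in WT vehicle cells and 0 lower, against the same 16.9% and 14.7%, with a median log2 fold change of 0.13. They included Pdha1 at 0.22 ± 0.03, Dld at 0.28 ± 0.04 and Idh3a at 0.27 ± 0.04. With SHP099 0 of the 17 rose and 4 fell, against 8.81% and 13% of all genes: Idh3a from 195 ± 2.49 to 166 ± 6.58 CPM, Dlat at -0.19 ± 0.04, Pdha1 at -0.13 ± 0.03 and Ogdh at -0.17 ± 0.04.

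Markers of several myeloid cell types moved with the same groups. The cultures expressed progenitor genes, with Mpo at 7440 to 9000 and Kit at 154 to 160 CPM as group means, and of 8 progenitor markers 1 rose with SHP099 and 0 fell, against 8.81% and 13% of all genes tested. Of 8 mature neutrophil markers 4 rose and 0 fell with SHP099 (median log2 fold change 0.56), and their summed level was 17200 to 18400 CPM in mutant vehicle, 25000 to 30100 CPM in SHP099 and 23900 to 30300 CPM in WT libraries. Of 6 mast cell and basophil markers 4 rose, with sums of 827 to 1200 CPM in mutant vehicle, 1300 to 1700 CPM in SHP099 and 1650 to 1810 CPM in WT libraries. Of 6 monocyte and macrophage markers 2 rose, with sums of 959 to 1070 and 1410 to 1480 CPM in the mutant groups and 847 to 1050 CPM in WT. Of 5 megakaryocyte markers 2 rose, with sums of 1060 to 1430 and 1340 to 1780 CPM in the mutant groups and 2380 to 3010 CPM in WT. Of the 4 tested erythroid markers 0 passed with SHP099, all 4 were lower in mutant than WT vehicle cells, and Hbb-b1 and Hba-a1 were listed at 0. Of 6 lymphoid markers Nkg7 was the one tested and it rose, and Cd3e, Cd3g, Cd79a and Ms4a1 were near 0. Of 4 tested stromal markers 0 changed with SHP099. With the replicate number as a block in the mutant pairs more markers rose and 0 fell: 8 of 8 neutrophil, 6 of 6 mast cell and basophil, 5 of 5 megakaryocyte, 4 of 8 progenitor, 4 of 6 monocyte and macrophage, 3 of 4 erythroid and 1 of 4 stromal markers, against 21.5% of all genes that rose in that fit. Against WT, 6 of the 8 neutrophil, 4 of the 6 mast cell and basophil and all 5 megakaryocyte markers were lower in mutant vehicle cells, against 14.7% of all genes tested. In SHP099-treated mutant against WT cells 2 of the 8 neutrophil markers were lower, Cd177 and Mmp9, and 0 were higher. Of the mast cell and basophil markers 2 were lower there, Cma1 and Tpsb2, and 1 was higher, Fcer1a. The shares of all genes tested were 16.3% lower and 15.4% higher. The part of these shifts in the oxidative phosphorylation counts was not tested.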

How the data were processed

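RNA from 9 cultures was made into libraries with a stranded mRNA kit, per the labels' protocols. FastQC, STAR, featureCounts, Subread and the build mm10 are named, without versions, in the submitters' processing notes. Neither the annotation release nor the strand setting is given in the sources used here. The authors deposited raw counts per gene symbol for 24421 symbols. The count column whose last character differs from its sample title was taken as SHP099 replicate 3, the one sample of that genotype, number and treatment.

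edgeR 4.0.16 (R 4.3.3) was run on the counts, with filterByExpr on the groups and a minimum count of 10 (13270 genes kept, 11151 left out), TMM scaling and 1 quasi-likelihood fit of all 9 libraries with a mean per group. Tests were two-sided with Benjamini-Hochberg adjustment over all genes tested, at a threshold of 0.05. The standard error is the absolute log2 fold change over the square root of F. CPM use library sizes scaled by TMM and are given as mean ± SD over 3 libraries, and the biological coefficient of variation was 9.04%. The spread between libraries limits the precision, and genes near the count limit also carry counting error.

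Across genes, the deviation from the group mean correlated between same-numbered mutant vehicle and SHP099 libraries at 0.543, 0.596 and 0.561, and between libraries numbered differently at -0.359 to -0.227. The numbers, which come from the sample titles, therefore pair these libraries. Same-numbered WT and mutant vehicle libraries correlated at -0.135 to -0.072 and are not pairs. Coordinates, lengths (median and longest coding transcript), GC content and shared 50-base words came from GENCODE M21 on GRCm38 (24028 of 24421 symbols matched), and promoters from RefSeq on GRCm38.p6. Length and GC trends were lowess curves (span 0.3). Alternatives were RLE size factors, DESeq2 1.42.0, other count filters, each library left out, the replicate block, the compared groups alone and the removed trends. The script was tested on simulated data.

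The members, their symbol rule and the gene lists were chosen with earlier results of these data known. Named genes are members called with SHP099, the called members between genotypes, the largest changes and highest levels per complex, fixed catalytic or core members, isoform sets, the longest transcripts, and up to 3 called genes with the smallest p of each other list. Tet2, Ptpn11 and Flt3 check the labels. Genes outside this rule, among them Mterf1a, Ogdh, Uqcrb, Atp5f1, Ndufa12, Cox7c, Atp5o and Rn45s, were named after their values were seen. Some single-gene values are not reported here.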

Additional observations from a re-analysis of the deposited data

How the results depend on the processing

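With SHP099, 29 genes passed the edgeR test, and the number was 28 to 36 with RLE size factors, DESeq2, other count filters, the 2 groups alone or the replicate block in all 9 libraries (32). It was 17 to 32 with 1 library left out. Shares of all genes tested are not given for any of these alternatives, in this or the other comparisons. It was 14 with the trend on longest length and GC content removed, 12 with that and the replicate block, 14 with the median-length trend and 46 with the replicate block in the mutant libraries alone. The last 2 and their combination (29) were added after the data were seen. Between genotypes the 11 genes became 5 to 14 with 1 library left out, 7 in the 2 groups alone and 17 with the longest-length trend removed. For treated mutant against WT cells the 44 genes became 16 to 48, and 16, 18 and 20 with the longest-length trend, that trend with the replicate block and the median-length trend removed. With SHP099, 69 of the 80 genes were above 0, against 44 and 54 with the longest-length and median-length trends removed. Among genes that passed the test in either of the fits compared, 2 changed sign. With SHP099, Cox5b was at a log2 fold change of -0.104 with the replicate block and median-length trend in the mutant libraries alone, and Ndufa7 at -0.02 with the longest-length trend removed and -0.021 with the block added. Against WT, Ndufa7 in treated cells was at -0.023 with the longest-length trend removed, with and without the block, and at -0.011 with the median-length trend. The cause was not tested, apart from the smaller number of samples where a library is left out. WT and mutant numbers do not pair, so the block was read in the mutant pairs. Depth limits the genes nearest to the count limit, such as Cox4i2 at 9 to 47 counts per library.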
